A study of Homo sapiens with 12 samples.

Results

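The genes described here are 10 members of the BCL2 family of apoptosis regulators, taken as every row of the deposited transcript table whose gene symbol was BCL2, BCL2L1, MCL1, BCL2A1, BAX, BAK1, BBC3, PMAIP1, BCL2L11 or BID. Their 49 transcript rows, of 100502 in the table, were summed to 10 of 46639 gene symbols. All 10 were among the 10642 protein-coding genes tested. RNA was sequenced from MOLM-13, an established line of human acute myeloid leukemia cells that, per the study, carries an MLL-AF9 fusion. The 4 groups of 3 libraries were untreated cells, cells given 100 nM decitabine (DAC, a nucleoside that inhibits DNA methylation), cells given 1 µM all-trans retinoic acid (ATRA, a ligand of retinoic acid receptors), and cells given both (DAC+ATRA). All cells are described as grown in medium with 20% FCS and 5 ng/ml GM-CSF. The study's methods give a lower share of FCS for its cell lines and name no GM-CSF, a difference not resolved here. DAC was renewed daily for 3 days.

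Several features of the design limit what these groups can show. The labels give 96 h for untreated cells and 72 h for treated cells, while the series' design text names a harvest at 72 h, so time and treatment cannot be told apart in comparisons with untreated or in the interaction, which also uses the untreated group. The study's methods place ATRA together with the third DAC dose, which is a later start than the labels imply. A vehicle control was not part of the libraries analysed. The labels call the libraries technical triplicates of 1 cell line, so p-values measure only the spread within an experiment. In a bulk sample, fewer cells with a transcript and less transcript per cell cannot be told apart.

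Proteins of this family control permeabilisation of the outer mitochondrial membrane, the step that releases cytochrome c and activates caspases. BCL2, BCL-XL (BCL2L1), MCL1 and BFL-1 (BCL2A1) hold cells alive by binding the pore-forming effectors BAX and BAK (BAK1) and the BH3-only proteins. PUMA (BBC3), NOXA (PMAIP1), BIM (BCL2L11) and BID are BH3-only proteins that signal death, and NOXA binds MCL1 in particular. Leukemic myeloid cells are known for their reliance on BCL2 and MCL1, the targets of BH3-mimetic drugs.

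The promoter windows of 3 members show the range of CG content in the family, since CG dinucleotides are where DNA methylation occurs. Each RefSeq window (GRCh38.p14) runs from 250 bases before to 50 bases after a transcription start, 5′ to 3′, with every CG in capitals.
PMAIP1, chr18:59899746-59900045, plus strand: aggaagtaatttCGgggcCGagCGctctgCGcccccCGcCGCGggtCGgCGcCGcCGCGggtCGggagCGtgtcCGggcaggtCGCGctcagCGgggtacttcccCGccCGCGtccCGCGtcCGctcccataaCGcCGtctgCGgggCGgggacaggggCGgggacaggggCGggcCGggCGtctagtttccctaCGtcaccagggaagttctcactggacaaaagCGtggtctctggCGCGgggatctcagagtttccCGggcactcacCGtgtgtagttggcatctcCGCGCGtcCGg
BAX, chr19:48954625-48954924, plus strand: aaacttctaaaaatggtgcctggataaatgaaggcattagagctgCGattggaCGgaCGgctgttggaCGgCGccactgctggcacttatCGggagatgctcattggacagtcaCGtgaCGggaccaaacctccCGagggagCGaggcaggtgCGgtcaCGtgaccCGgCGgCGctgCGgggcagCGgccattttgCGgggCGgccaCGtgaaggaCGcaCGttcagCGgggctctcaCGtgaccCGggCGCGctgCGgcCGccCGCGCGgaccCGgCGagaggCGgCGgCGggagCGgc
BCL2A1, chr15:79971147-79971446, minus strand: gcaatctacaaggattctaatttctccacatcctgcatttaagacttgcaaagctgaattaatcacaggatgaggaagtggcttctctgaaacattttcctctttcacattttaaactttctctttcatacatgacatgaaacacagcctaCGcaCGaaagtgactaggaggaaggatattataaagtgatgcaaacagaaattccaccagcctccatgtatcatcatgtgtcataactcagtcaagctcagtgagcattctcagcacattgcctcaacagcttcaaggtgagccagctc
The PMAIP1 window held 42 CG and the BAX window 38, against a median of 14 over 35116 windows, and the BCL2A1 window held 2. RefSeq gave 14 windows for 9 members. All windows of BCL2 (31 CG), BCL2L1, BAX, PMAIP1 and BCL2L11 (39 CG) were above the median, those of BCL2A1, BAK1 and BBC3 were below it, and the windows of BID lay on both sides. The letters AGGTCA, the repeat unit of nuclear receptor elements, were searched on both strands and stood in 0 of the 14 windows, against 13.8% of all windows. Methylation was not measured in these libraries, and a match or its absence is a description of these letters only.

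Levels are given as normalised counts, the authors' read counts per transcript divided by 1 size factor per library and summed per gene. Depth was 4.67 to 11.9 M recovered reads (M stands for mega), and the DAC libraries (4.67 to 6.95 M) and DAC+ATRA libraries (5.61 to 7.16 M) were shallower than the untreated (8.95 to 11.9 M) and ATRA libraries (8.36 to 10.7 M). DAC replicate 3 differed most from the rest of its group, with a median absolute difference of 0.35 (log2) over genes, where the other libraries had 0.13 to 0.28. All 10 myeloid markers checked were present at 10 or more normalised counts in at least 1 library, while their summed level was 70298 to 78541 in untreated, 181818 to 222505 in DAC, 23141 to 28385 in ATRA and 68573 to 72848 in DAC+ATRA. Mean LYZ alone was 41628, 153287, 6819 and 40819 in the same order. The single markers did not all follow the sum. Against untreated, mean CD33, SPI1, MEIS1 and CSF1R (566 to 924) were higher with ATRA. PTPRC, CEBPA (15377 to 6063), MPO, LYZ, FLT3 and HOXA9 were lower with ATRA. With DAC, CD33, SPI1, MPO and LYZ were higher, and PTPRC, CEBPA, FLT3, HOXA9 and CSF1R were lower. MEIS1 was 255 in untreated and 254 with DAC. Of the markers of B, T, erythroid and epithelial cells, MS4A1, CD2, ALAS2, KRT5 and CDH1 were at 0 in every library. CD79A reached at most 39.8 normalised counts and CD3D 37.6, and CD3E had at most 2 reads in a library. The part of marker levels in the results was not tested.

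A member was called at a limma adjusted p under 0.01. Against untreated, DAC left 1 member called higher and 2 lower, where 4.29% and 3.67% of all tested genes were called in these directions. ATRA left 4 called higher and 1 lower, against 12.1% and 14.0% of all genes. DAC+ATRA left 2 called higher and 2 lower, against 14.5% and 14.4%. The median log2 change of the 10 members was 0.15 with DAC, 0.51 with ATRA and 0.58 with DAC+ATRA, and the medians of all genes were -0.0041, -0.04 and -0.0039. BCL2L1, BAK1, BCL2L11 and BID passed the filter on low values only through some of their groups. These medians are therefore a description of the 10 genes, and so is any call for BCL2L1, BCL2L11 or BID.

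**Figure D1:**
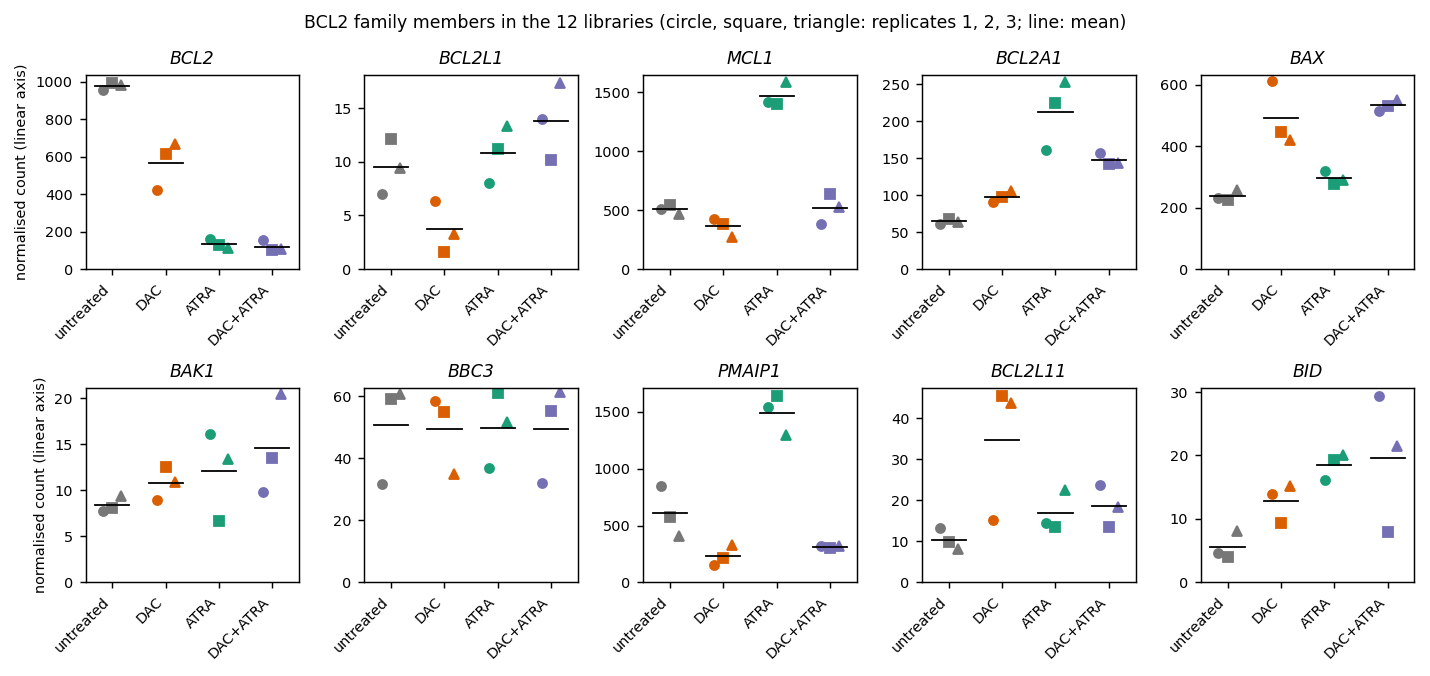
Normalised counts of the 10 members on linear axes, each starting at 0. Each point is 1 library, the marker shape its replicate number and the line the mean of the 3 libraries of a group. BCL2 lay between 100.2 and 162 in all 6 libraries with ATRA and between 955 and 993 in untreated, and MCL1 and PMAIP1 were highest in the 3 ATRA libraries.

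Among the anti-apoptotic members, BCL2 had the widest span, and it was lower in every treated library than in any untreated one. BCL2 (chr18:63123346-63320128, minus strand) had 955, 993 and 983 normalised counts in the untreated libraries, 419.8, 615 and 666 with DAC, 162, 127 and 115 with ATRA, and 153, 100.2 and 107 with DAC+ATRA. The libraries with ATRA did not overlap those without it, and the ATRA and DAC+ATRA libraries overlapped each other. BCL2 fell by 2.87 (log2) with ATRA, a 7.30-fold lower level (SE 0.18, limma adjusted p 2.93e-10). It was 8.22-fold lower with DAC+ATRA (log2 change -3.04, SE 0.18, limma adjusted p 1.34e-10). DAC+ATRA was also below DAC alone (-2.23, limma adjusted p 1.61e-08), whereas against ATRA alone the difference was -0.17 with a 95% interval of -0.56 to 0.21 (limma adjusted p 0.557). The DAC change was smaller, at -0.81 (SE 0.18, limma adjusted p 0.00489). That last call was lost without DAC replicate 1 (-0.61, limma adjusted p 0.0322), without any 1 untreated library (0.0181 to 0.0256) and in a fit of only the compared groups (0.0215). It was also lost with a replicate block (0.0107) and when only the most abundant transcript row was read (0.0105).

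The BCL2 reads came from a pair of transcript rows. BCL2-203, with 75.1% of the reads, can be told from the other listed BCL2 transcripts only over 4280 bases, of which 4250 are annotated as its 3′ UTR (chr18:63313802-63318081), and BCL2-202, with 24.9%, over 580 bases of 5′ UTR. The mean of BCL2-203 was 0.13 times its untreated mean with ATRA and 0.56 times with DAC, and that of BCL2-202 was 0.15 and 0.64 times. Both rows thus moved in the same direction, and the share of BCL2-203 was 75.8% ± 0.77 in untreated and 74.8% ± 6.58 in DAC+ATRA (SD, n = 3). If only reads unique to 1 listed transcript were kept, the BCL2 counts are RNA over these stretches. The 4280 bases lie inside the gene but in no exon of the other listed BCL2 transcripts. Unspliced BCL2 RNA there cannot be told from BCL2-203 in libraries that were only depleted of ribosomal RNA. A long non-coding RNA gene, ENSG00000267766, also overlaps BCL2 on the same strand. The part of either in the counts was not tested.

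MCL1, a short-lived survival protein, was highest with ATRA alone and was not called against untreated with DAC+ATRA. The untreated libraries had 511, 543 and 469 normalised counts, the DAC libraries 429, 383 and 273, the ATRA libraries 1421, 1399 and 1586, and the DAC+ATRA libraries 381, 638 and 528. The ATRA libraries stood above the other 9, and the untreated and DAC+ATRA libraries overlapped. MCL1 was 2.89-fold higher with ATRA (log2 change 1.53, SE 0.17, limma adjusted p 7.36e-07). In DAC+ATRA its change against untreated was -0.01 with a 95% interval of -0.37 to 0.35 (limma adjusted p 0.981), and it was 2.90-fold lower than with ATRA alone (-1.54, limma adjusted p 2.84e-06). With DAC alone the change was -0.51 and not called (limma adjusted p 0.0501). MCL1 (chr1:150560895-150579738, minus strand) overlaps ADAMTSL4 on the opposite strand. The libraries mark strand, but the strand setting of the counting is not given in the sources used here. MCL1 also overlaps ADAMTSL4-AS1, RN7SL473P and RN7SL600P on its own strand, which a strand setting would not set apart.

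BCL2A1, a survival gene expressed in myeloid cells, was above untreated in all 9 treated libraries. It had 61.4, 68.2 and 64.0 normalised counts in untreated, 90.3, 97.2 and 106 with DAC, 160.4, 224 and 253 with ATRA, and 157, 142 and 144 with DAC+ATRA. The 4 groups did not overlap, and the order from low to high was untreated, DAC, DAC+ATRA and ATRA. BCL2A1 rose by 1.68 (log2) with ATRA (SE 0.18, limma adjusted p 3.42e-07). In DAC+ATRA the rise was 1.18 (limma adjusted p 2.79e-05). With DAC it was 0.59 and missed the threshold (limma adjusted p 0.0291), as did the neighbouring steps of DAC+ATRA against DAC (0.59, limma adjusted p 0.0168) and against ATRA (-0.50, limma adjusted p 0.0518). Without ATRA replicate 1, the lowest ATRA library, both of those steps were called (limma adjusted p 0.00795 and 0.00867). The rows BCL2A1-201 (64.1% of the reads) and BCL2A1-202 (35.9%) both rose with ATRA, to 3.17 and 3.55 times their untreated means. These rows can be told apart only over 27 bases of BCL2A1-201 and 56 bases of BCL2A1-202.

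BCL2L1, the BCL-XL gene, was counted with few reads, at most 17 in a library. It ranged from 7.0 to 12.2 normalised counts in untreated, 1.57 to 6.36 in DAC, 8.06 to 13.4 in ATRA and 10.1 to 17.4 in DAC+ATRA. The DAC libraries were the lowest and did not overlap the others. No DAC library reached 10 normalised counts, so the gene entered the tests only through libraries of the other groups. BCL2L1 was higher in DAC+ATRA than in DAC (1.75, SE 0.46, limma adjusted p 0.00757), a call that was lost in 14 of 25 alternatives, including DESeq2 (adjusted p 0.0247), edgeR (0.0183) and the fits without any 1 DAC+ATRA library (0.0114 to 0.0404). It was also lost without DAC replicate 2 (limma adjusted p 0.0373) or DAC replicate 3 (0.0152). Against untreated, BCL2L1 changed by -1.26 with DAC and was not called (limma adjusted p 0.0757).

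Of the effectors, BAX was higher in every library that received DAC, with or without ATRA. BAX (chr19:48954815-48961798, plus strand) had 233, 224 and 258 normalised counts in untreated, 614, 445 and 420.2 with DAC, 321, 276 and 291 with ATRA, and 517, 532 and 551 with DAC+ATRA. The 6 libraries with DAC lay above the 6 without it, and the DAC and DAC+ATRA libraries overlapped. BAX rose 2.04-fold with DAC (log2 change 1.03, SE 0.14, limma adjusted p 4.03e-05). The rise with DAC+ATRA was 2.24-fold (1.16, limma adjusted p 1.98e-06). DAC+ATRA exceeded ATRA alone 1.80-fold (0.85, limma adjusted p 2.12e-04), while DAC+ATRA against DAC gave 0.13 with a 95% interval of -0.16 to 0.43. The change with ATRA alone was 0.31 (limma adjusted p 0.0914). Its main rows BAX-201 and BAX-202, with 66.1% and 33.5% of the reads, were 2.13 and 2.00 times their untreated means with DAC. These calls against untreated held in all 26 alternatives run.

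BAK1, the other effector, had 6.70 to 20.4 normalised counts over the 12 libraries, from 7 to 20 reads each. Its groups overlapped, and its log2 changes of 0.31 with DAC, 0.40 with ATRA and 0.67 with DAC+ATRA were not called (limma adjusted p 0.677, 0.496 and 0.21). The 95% interval with DAC+ATRA ran from -0.19 to 1.53.

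**Figure D2:**
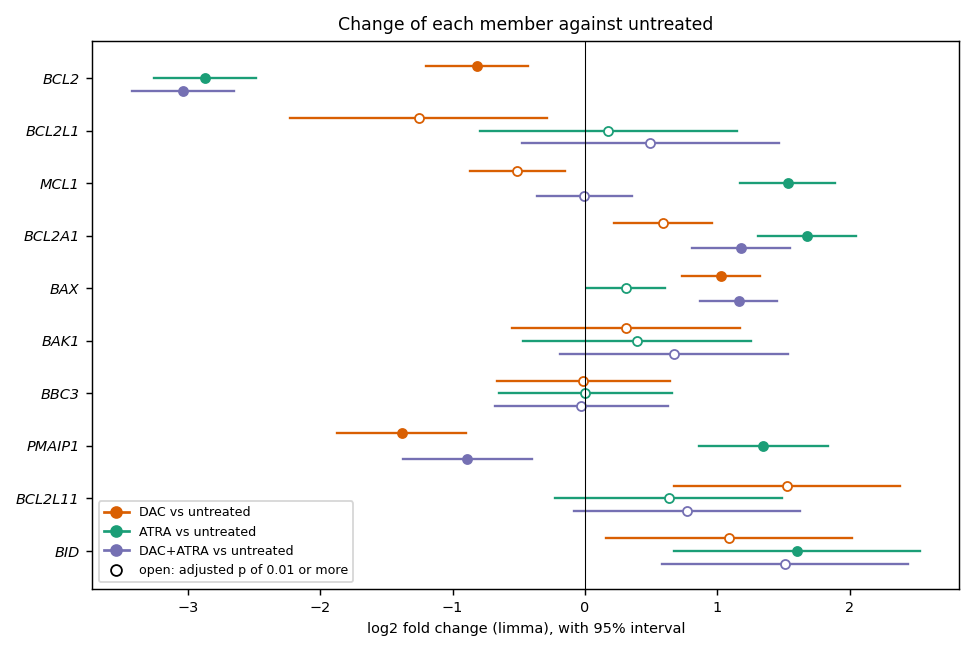
Log2 fold change of each member against untreated from limma (horizontal axis) with its 95% interval, for DAC, ATRA and DAC+ATRA. Filled circles had an adjusted p under 0.01 and open circles did not. BCL2 lay at -2.87 with ATRA and -3.04 with DAC+ATRA, and PMAIP1 lay on opposite sides of 0 with DAC (-1.38) and ATRA (1.35).

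Among the BH3-only members, PMAIP1 was lower with DAC and higher with ATRA. PMAIP1 (chr18:59899996-59904305, plus strand) had 851, 578 and 405 normalised counts in untreated, 156, 215 and 329.8 with DAC, 1546, 1638 and 1300.0 with ATRA, and 321, 302 and 323 with DAC+ATRA. The ATRA libraries were the highest, all 6 libraries with DAC were below every untreated library, and the untreated libraries themselves spread from 405 to 851. PMAIP1 fell by 1.38 (log2) with DAC (SE 0.23, limma adjusted p 3.69e-04), a call lost in a fit of only the compared groups (0.0332). With ATRA it rose by 1.35 (SE 0.23, limma adjusted p 1.25e-04). DAC+ATRA was 4.71-fold below ATRA alone (-2.24, limma adjusted p 1.14e-06) and below untreated (-0.89, limma adjusted p 0.00472). The last of these calls did not hold when untreated replicate 1 was left out (-0.62, limma adjusted p 0.0426), nor without untreated replicate 2 (0.016) or any 1 DAC+ATRA library (0.015 to 0.0199). DAC+ATRA against DAC was 0.50 and not called (limma adjusted p 0.12), but it was called without DAC replicate 3 (0.78, limma adjusted p 0.00574).

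The PMAIP1 rows did not change by the same factor. PMAIP1-202, with 77.9% of the reads and its own 3′ UTR stretch of 768 bases, was 0.31 times its untreated mean with DAC and 2.42 times with ATRA. PMAIP1-201, told apart by 151 coding bases, was 0.70 and 2.57 times. With DAC+ATRA the rows parted, at 0.37 times for PMAIP1-202 and 1.16 times for PMAIP1-201, whose DAC+ATRA libraries (129.7 to 133 normalised counts) lay within the untreated range (99.1 to 141). The share of PMAIP1-201 was 20.2% ± 7.37 in untreated, 37.4% ± 15.4 with DAC, 19.6% ± 1.63 with ATRA and 41.8% ± 2.02 with DAC+ATRA (SD, n = 3). It ran from 24.8% to 54.5% in the DAC libraries and from 11.7% to 24.5% in the untreated ones, and the DAC+ATRA libraries lay above all ATRA libraries. Groups of 3 libraries cannot give an exact permutation p under 0.1, so the shares are given as a description. The size of the fall in summed PMAIP1 with DAC thus depended on the row, and the fall with DAC+ATRA against untreated was seen in PMAIP1-202 and not in PMAIP1-201.

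**Figure D3:**
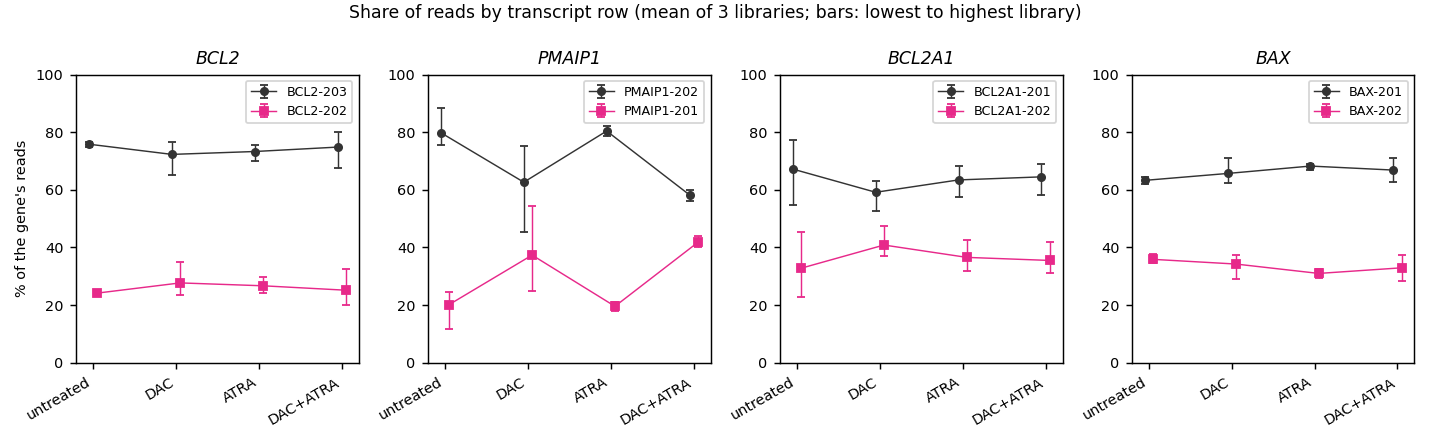
Share of a gene's reads (percent) held by each transcript row with at least 10% of them, for BCL2, PMAIP1, BCL2A1 and BAX in the 4 groups. Points are means of 3 libraries and bars run from the lowest to the highest library. The PMAIP1-201 share was 19.6% with ATRA and 41.8% with DAC+ATRA, while the BCL2-203 share had group means of 72.3% to 75.8%.

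BCL2L11, the BIM gene, had 13.2, 9.74 and 8.15 normalised counts in untreated and 15.3, 45.5 and 43.5 with DAC. All 3 DAC libraries were above untreated, DAC replicate 1 only slightly. Only 1 untreated library reached 10 normalised counts, so the gene passed the filter on low values through treated libraries. Any call for BCL2L11 is therefore a description. The change of 1.53 with DAC (SE 0.41) missed the threshold (limma adjusted p 0.0148) but passed it in DESeq2 (adjusted p 0.00149), in edgeR (0.00653) and in limma without DAC replicate 1 (2.02, adjusted p 0.00159). Other alternatives weakened it, and over all of them the change went down to 0.58 and the limma adjusted p up to 0.663. With ATRA its level was 13.4 to 22.6 and with DAC+ATRA 13.5 to 23.8, not called in either (limma adjusted p 0.248 and 0.143). The 3 rows that held most BCL2L11 reads have no match in GENCODE 44, and the gene had 12 to 40 reads in a library. With DAC the means of these rows went from 1.21 to 15.0, from 4.59 to 8.82 and from 4.31 to 7.26 normalised counts. The rise was thus largest in 1 row.

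BID, which is cleaved by caspase-8 and so links death receptors to mitochondria, was also read at low depth, with 5 to 26 reads in a library. It had 4.67, 4.06 and 8.15 normalised counts in untreated, 14.0, 9.41 and 15.2 with DAC, 16.1, 19.3 and 20.1 with ATRA, and 29.4, 7.88 and 21.4 with DAC+ATRA. DAC and ATRA libraries were above all untreated ones, and DAC+ATRA replicate 2 was not. No untreated library reached 10 normalised counts, so the gene entered the tests only through treated libraries. BID rose with ATRA (1.60, SE 0.44, limma adjusted p 0.00775), a call lost in 8 of 25 alternatives, among them the fits without any 1 ATRA library (0.015 to 0.0309), without untreated replicate 1 (0.0289) or 2 (0.0373) and without DAC+ATRA replicate 3 (0.0104). With DAC+ATRA the change of 1.51 just missed the threshold (limma adjusted p 0.0105). It was called without DAC+ATRA replicate 2 (2.03, limma adjusted p 0.00114), untreated replicate 3 (0.00901) or DAC replicate 3 (0.00841), and in DESeq2 and edgeR (adjusted p 0.00351 and 0.00634).

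BBC3, the PUMA gene, had group means of 50.7 ± 16.3 in untreated, 49.4 ± 12.8 with DAC, 49.9 ± 12.3 with ATRA and 49.5 ± 15.3 with DAC+ATRA (SD, n = 3). The groups overlapped, with 31.9 to 61.3 normalised counts over all libraries. The 95% interval of its change with DAC+ATRA was -0.68 to 0.63 (log2). The row BBC3-203 held 97.2% of its reads, and it can be told from the other rows only over 271 bases of 5′ UTR.

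What each drug added to the other was compared next. DAC+ATRA differed from DAC alone in 1 member called higher (BCL2L1) and 1 lower (BCL2), where 9.04% and 9.74% of all genes were called. It differed from ATRA alone in 1 higher (BAX) and 2 lower (MCL1 and PMAIP1), where the shares of all genes were 6.47% and 5.46%. The BCL2L1 call is a description only, since no DAC library reached the filter level, and it was lost in 14 of 25 alternatives. The member medians were 0.39 and -0.06, and those of all genes -0.00039 and 0.03. BCL2 in DAC+ATRA thus lay with the ATRA libraries and BAX with the DAC libraries.

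The interaction asked whether the combined change departed from what the DAC and ATRA changes add up to in log2. Limma called 0 of 10 members, where 0.724% of all genes were called positive and 0.874% negative. At an unadjusted p under 0.05 there were 6 members, against 14.8% of all genes. DESeq2 called 2 members and 3.04% of all genes, and edgeR 0 members and 1.84%. The untreated libraries enter this contrast, so the 96 h label cannot be told apart from an interaction. The nearest to the threshold were BCL2A1 (-1.09, 95% interval -1.61 to -0.56, limma adjusted p 0.0174) and MCL1 (-1.03, -1.53 to -0.52, limma adjusted p 0.0205), the pair that DESeq2 called (adjusted p 0.00255 and 0.00237). For MCL1 the single changes summed to 1.02 and the combined change was -0.01, and for BCL2A1 they summed to 2.27 against 1.18. MCL1 was called in limma without DAC replicate 3 (-1.22, adjusted p 7.33e-04) and without DAC+ATRA replicate 2 (-1.20, adjusted p 0.00988), and BCL2A1 without ATRA replicate 1 (-1.28, adjusted p 0.00357). PMAIP1 summed to -0.04 against -0.89, with an interaction of -0.85 that was not called (limma adjusted p 0.2). BCL2 summed to -3.68 against -3.04 (interaction 0.64, limma adjusted p 0.233) and BAX to 1.34 against 1.16 (-0.18, limma adjusted p 0.77).

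**Figure D4:**
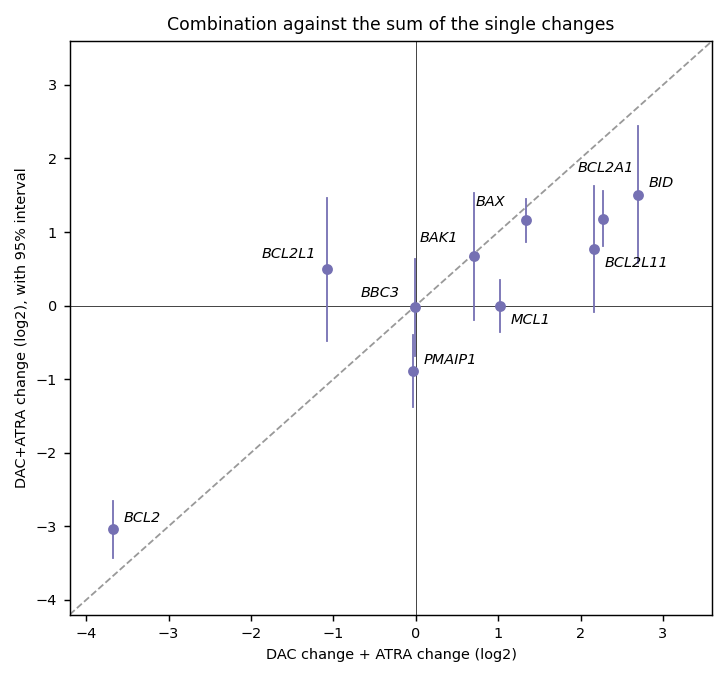
Log2 change with DAC+ATRA against untreated (vertical axis, 95% interval) plotted over the sum of the DAC and ATRA changes (horizontal axis, log2) for the 10 members. On the dashed line the combination equals the sum, and both axes rest on the untreated libraries, labelled 96 h. MCL1 (1.02, -0.01) and BCL2A1 (2.27, 1.18) lay below the line and BCL2 (-3.68, -3.04) above it.

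Read ratios within a library, which do not depend on library scaling and were chosen after the levels were seen, set the members against each other relative to their untreated mean. BAX reads per BCL2 read were 3.85 ± 1.87 times the untreated ratio with DAC, 9.15 ± 1.17 times with ATRA and 18.9 ± 4.38 times with DAC+ATRA (SD, n = 3). By library the ratio was 6.0, 2.97 and 2.58 with DAC, 8.11, 8.94 and 10.4 with ATRA and 13.9, 21.8 and 21.1 with DAC+ATRA, so the groups did not overlap. MCL1 reads per BCL2 read were 1.32 ± 0.60 times the untreated ratio with DAC, 21.6 ± 4.90 times with ATRA and 8.85 ± 3.77 times with DAC+ATRA. PMAIP1 reads per MCL1 read moved less, to 0.59 ± 0.37, 0.86 ± 0.15 and 0.54 ± 0.16 times, and the groups overlapped with untreated (0.72 to 1.39) except for DAC+ATRA (0.39 to 0.70). The ratios restate the levels above and carry no separate test.

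**Figure D5:**
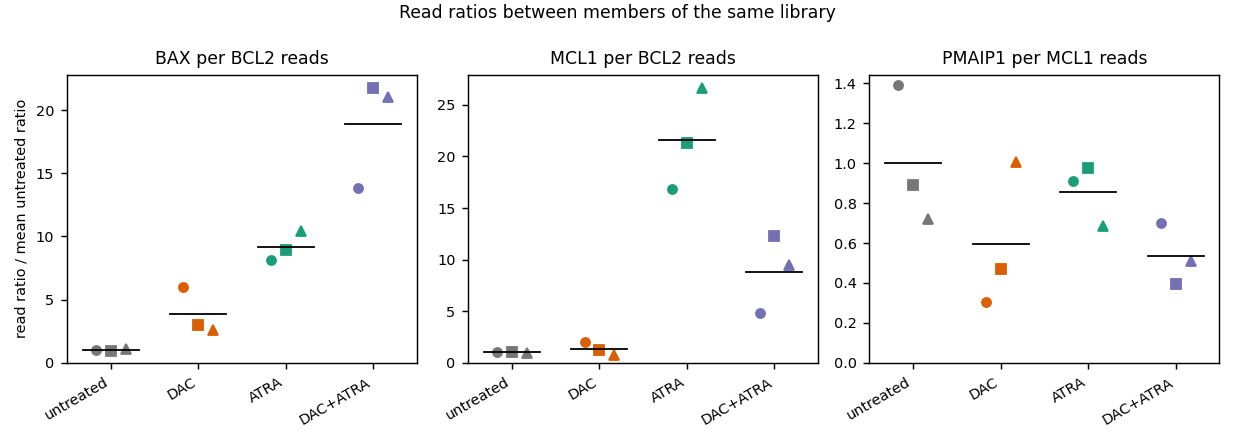
Ratios of reads between members of the same library, divided by the mean untreated ratio (vertical axes, linear, starting at 0), by group. Points are libraries, marker shapes replicate numbers and lines group means. BAX per BCL2 rose from 1 in untreated to 18.9 with DAC+ATRA, and MCL1 per BCL2 was highest with ATRA at 21.6.

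Other genes of the pathway were taken from 5 lists of 52 genes, of which 40 could be tested. DAC called 3 of the 40 higher and 2 lower, ATRA 2 higher and 5 lower, and DAC+ATRA 2 higher and 3 lower against untreated. The shares of all genes, as for the members, were 4.29% and 3.67%, 12.1% and 14.0%, and 14.5% and 14.4%. In the list of other BCL2 family genes, the mitophagy receptors BNIP3 (-2.94, limma adjusted p 2.04e-11) and BNIP3L (-1.31, limma adjusted p 1.92e-08) were lower with DAC+ATRA, the former from 4314 ± 497 to 559.96 ± 22.1 normalised counts. BNIP3 was also lower with DAC (-1.68) and ATRA (-0.87), both called. Among inhibitor of apoptosis proteins, XIAP, which inhibits caspases, was higher with DAC+ATRA (1.14, limma adjusted p 0.002). BIRC5 (survivin), a gene of dividing cells, was lower (-1.55, limma adjusted p 3.35e-04). Both were also called with ATRA alone (XIAP 1.03, limma adjusted p 0.00484, and BIRC5 -1.44, limma adjusted p 6.99e-04). DAC+ATRA against ATRA gave 0.11 for XIAP and -0.11 for BIRC5, neither called. MDM2, which encodes a ubiquitin ligase, was higher with DAC (0.87, limma adjusted p 3.07e-05). In DAC+ATRA it was higher by 0.56 (limma adjusted p 6.48e-04). In the apoptosome and caspase list, limma called 0 of 12 tested genes against untreated with DAC, ATRA or DAC+ATRA, while 2, 5 and 3 had an unadjusted p under 0.05, against 28.7%, 44.5% and 47.8% of all genes. DESeq2 called 1, 3 and 0 of them, against 11.3%, 29.5% and 31.8% of all genes. EdgeR called 0, 2 and 0, against 8.96%, 27.9% and 30.4%. The interaction was called in 1 of the 40, the death ligand TNFSF10 (-1.33, limma adjusted p 0.00376), named after its value was seen.

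The genes whose pattern over the 12 libraries was most like that of the 3 members with the widest spans were found by the root mean square difference of centred log2 levels. For BCL2 these were DEPTOR (0.24), SEMA3A (0.31) and ANKH (0.33), for MCL1 SPNS2 (0.24), CD300A (0.26) and EPHB3 (0.26), and for PMAIP1 TNFRSF4 (0.46), PPP1R15A (0.46) and GNRH1 (0.47). PPP1R15A, which encodes a phosphatase subunit of the stress response, had 2272 ± 203 normalised counts in untreated, 1179 ± 144 with DAC, 3868 ± 494 with ATRA and 1370 ± 78.8 with DAC+ATRA, the same order of the ATRA and DAC libraries as PMAIP1. DEPTOR, an inhibitor of mTOR, fell from 346 ± 33.9 in untreated to 63.9 ± 11.9 with ATRA. The libraries share their size factors and treatments, and the likeness is a description.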

How the data were processed

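RNA was sequenced in 12 MOLM-13 libraries, 3 per group, for 4 groups (untreated, DAC, ATRA and their combination). Per the study and the labels, the authors depleted ribosomal RNA, prepared strand-specific libraries, ran FastQC, aligned with STAR to hg38, counted per transcript with HTSeq and tested with DESeq2. The annotation release is not given in the sources used here. The deposited values are a signal, the authors' read counts divided by 1 size factor per library. In all libraries, 100% of values were whole reads within 0.01 read, so reads were recovered by division. Columns named CTRL were taken as untreated. Counting per transcript appears to have kept only reads unique to 1 listed transcript, so levels are lower limits and were not compared between genes. Rows were summed per symbol, and GENCODE 44 on GRCh38 gave biotypes and positions (88.9% of rows matched).

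The 10642 protein-coding genes that reached 10 normalised counts in 3 or more libraries entered limma 3.58.1 (R 4.3.3, lmFit, eBayes with trend) on log2(normalised count + 1), with 1 coefficient per group and no covariate. Fold changes are on that scale, which understates the change of low genes. Benjamini-Hochberg adjustment ran separately for each comparison, and calls needed an adjusted p under 0.01. The code was tested on simulated data. The alternatives used recovered reads in DESeq2 1.42.0 and in edgeR 4.0.16 (TMM factors), other scalings, pseudocounts, filters and thresholds, all gene symbols, the most abundant transcript row, a replicate block, only the compared groups, and leaving out each library. Promoter sequences came from RefSeq, and the protein sequences of the members were not used here. All 10 members, the context genes called in DAC+ATRA with the largest changes (up to 4 a list) and 3 nearest patterns for each of 3 members were named. Rows with at least 10% of a member's reads were named for BCL2, MCL1, BCL2A1, BAX, BBC3 and PMAIP1 only. The members, lists and tests were chosen with earlier results of these data known.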

Additional observations from a re-analysis of the deposited data

Results flagged for a closer look

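The BCL2A1 interaction of DAC and ATRA, -1.089 (log2), stood out because the libraries with and without DAC were ordered oppositely with and without ATRA. Every DAC library (90.3 to 106 normalised counts) was above every untreated library (61.4 to 68.2), whereas every DAC+ATRA library (142 to 157) was below every ATRA library (160.4 to 253). Neither step was called (limma adjusted p 0.0291 for DAC against untreated and 0.0518 for DAC+ATRA against ATRA), and the test of the difference itself did not pass (0.0174, with a range over the alternatives of 0.00255 to 0.143). The untreated libraries carry the 96 h label, and time cannot be told apart from treatment here. The cause was not tested.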

How the results depend on the processing

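Across the 60 log2 fold changes of the members and their alternatives, 39 fits lost and 25 gained a call. The sign turned in 48 fits of 6 members (BBC3, BCL2L1, MCL1, BAK1, BCL2L11 and BID), 0 of them for a called change. Members called with DAC numbered 3, 1 in a fit of only the compared groups and 5 at an adjusted p under 0.05; without single libraries the count ranged from 2 to 3. For DAC+ATRA against DAC the count of 2 became 1 in DESeq2, in edgeR, without a filter, with a filter of 50, with only the compared groups, with the most abundant row and with the replicate block, and 4 at an adjusted p under 0.05; without single libraries it ranged from 1 to 3. The interaction count of 0 became 2 in DESeq2 and at an adjusted p under 0.05, and 0 to 1 without single libraries. The ATRA count ranged from 4 to 5 without single libraries, that of DAC+ATRA against untreated from 3 to 5 and that against ATRA from 3 to 4. Requiring over 2-fold removed BCL2 with DAC, PMAIP1 with DAC+ATRA and BAX in DAC+ATRA against ATRA; with the most abundant row BID with ATRA was lost (limma adjusted p 0.0913). The cause was not tested.

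Replicate numbers did not pair the samples: of 18 same-numbered pairs, 2 had a correlation of deviations over 0.1 (range -0.26 to 0.11). With the replicate block the member counts were 2 for DAC, 5 for ATRA, 5 for DAC+ATRA, 1 against DAC, 3 against ATRA and 0 for the interaction, with BCL2 lost for DAC, BCL2L1 lost against DAC and BID gained for DAC+ATRA. Counts were low for BCL2L1, BAK1, BCL2L11 and BID, which had 1 to 40 reads in a library.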
